A study of Mus musculus with 185 samples.

Results

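Among monocyte-derived Langerhans cells (moLCs), the cells in which at least 1 read of Timd4 was counted (Timd4-read moLCs) were set against those with none (Timd4-unread moLCs), to ask whether the former resembled embryonic LCs (eLCs) in other genes. Among the moLCs with at most 5% of their reads on mitochondrial genes, 21 were Timd4-read and the other 82 were Timd4-unread, out of 185 single cells in all. All cells came from the epidermis of bone marrow chimeras (BMC), in which lethally irradiated CD45.1 Cd207DTR hosts carried wild-type CD45.2 bone marrow and had been given diphtheria toxin (DT) at 5 ng per g of body weight 2 months before the sort. Irradiation and DT were thus shared by all groups, and the 79 eLCs were the CD45.1 LCs still present in the host. Cd207DTR mice carry the DT receptor, human HBEGF, in the Cd207 gene, so that DT acts on cells in which that locus is active. Origin was assigned by index sorting of the congenic CD45 marker. The cells filled 2 plates. Plate 1 held 11 Timd4-read moLCs, 56 Timd4-unread moLCs and 29 eLCs, and plate 2 held 10, 26 and 50. The labels name no animal, age or sex, so the moLCs count as 1 sample and the cells are not replicates. No test was possible, the values below are descriptions, and all intervals are at 95% and cover counting error only.

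LCs are phagocytes of the epidermis that are seeded before birth and renew themselves there, and after their loss they can be replaced from circulating monocytes. Timd4 encodes TIM-4, a receptor for the phosphatidylserine that dying cells expose, and in gut, liver and other tissues it is carried by macrophages that have lived in the tissue for a long time. Reads of Timd4 in cells of recent bone marrow origin therefore raise the question of what else such cells share with their embryonic counterparts. Timd4 (ENSMUSG00000055546) is a protein-coding gene on the plus strand of mouse chromosome 11, chr11:46810800-46844332 in mm10.

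Timd4 was either absent from a moLC or counted in 234 or more reads. The lowest Timd4-read moLC had 234 reads, followed by 292 and 294, the median had 1080, and the highest had 5266, 3918 and 3832. Every Timd4-unread moLC had 0, so that no moLC held 1 to 233 reads and a threshold of 10 reads gives the same 21 cells. Among eLCs, the lowest counts above 0 were 10, 32, 55 and 100 reads, and 11 of the 60 Timd4-read eLCs had fewer reads than the lowest Timd4-read moLC. The share of moLCs with a read was 20.4% (exact Clopper-Pearson interval 13.1% to 29.5%), against 75.9% of eLCs (65% to 84.9%). It was 16.4% of moLCs on plate 1 and 27.8% on plate 2. After each cell was thinned to 2052512 reads, 19 of 96 moLCs, or 19.8%, still had a read. In counts per 1000000 reads (CPM), Timd4-read moLCs ranged from 93.6 to 1658 with a median of 405, inside the span of the Timd4-read eLCs, which went from 3.84 to 4396 with a median of 293. Summed over cells, the level was 557 CPM in the Timd4-read moLCs and 597 CPM in the Timd4-read eLCs. The order of these sums differed between plates, with 429 against 803 CPM on plate 1 and 707 against 449 CPM on plate 2. Since the rule divides moLCs by this gene, none of these levels is a finding about the division.

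**Figure D1:**
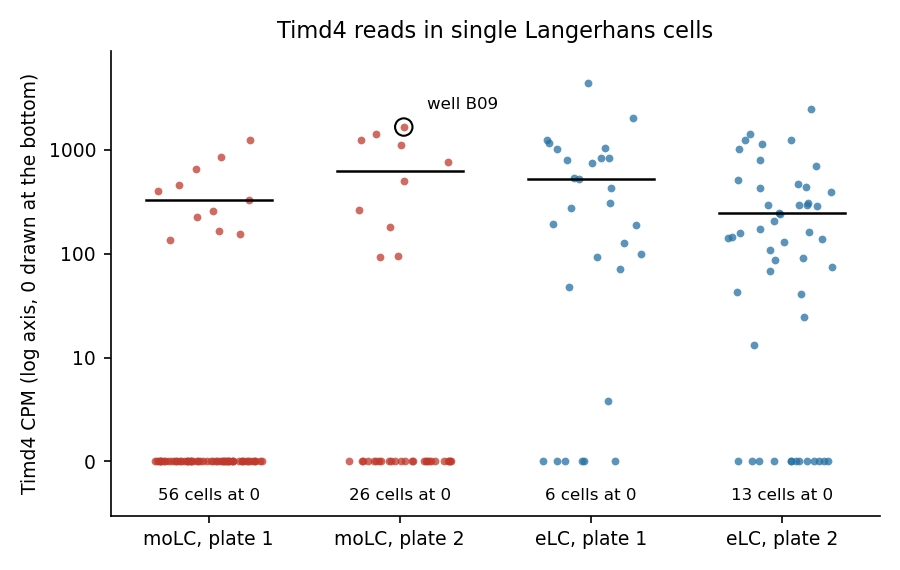
Timd4 in single cells, in CPM on a log axis with 0 drawn at the bottom, for moLCs and eLCs of each plate; points are cells and lines are medians over the cells with a read. Among moLCs the cells with a read lie well apart from those at 0, from 93.6 to 1658 CPM, and well B09 of plate 2 is the highest moLC. The Timd4-read eLCs go down to 3.84 CPM.

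Depth was similar in both groups, but fewer genes were read in Timd4-read moLCs. They had a median of 3099722 reads per cell (1142553 to 4022006), and Timd4-unread moLCs a median of 2922750 (606878 to 4450795). A median of 3737 genes was read in Timd4-read moLCs, 4118.5 in Timd4-unread moLCs and 4488 in eLCs, with overlapping ranges. After thinning, which left 19, 77 and 67 cells, the medians were 3672, 4102 and 4429. Within plates the thinned medians of Timd4-read and Timd4-unread moLCs were 3678 and 4069 on plate 1, and 3672 and 4268 on plate 2. The number of genes read moves with the division, and its part in the results below was not tested. The share of mitochondrial reads had a median of 0.914% and 0.976%.

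The first comparison asked whether the Timd4-read moLCs had the Cd207 level of their sorted origin. Cd207, which encodes Langerin, is the gene that carries the DT receptor in the host and is intact in donor cells. In Timd4-read moLCs Cd207 ranged from 2555 to 51614 CPM with a median of 32538. Timd4-unread moLCs had a median of 21832 CPM, from 0 to 60426, and eLCs a median of 1448, with 7767 as their highest cell. In 18 of the 21 Timd4-read moLCs and 69 of the 82 Timd4-unread moLCs the Cd207 level lay above every eLC. The log2 ratio of summed CPM, Timd4-read over Timd4-unread moLCs, was 0.40, with 0.34 on plate 1 and 0.60 on plate 2, while the groups overlapped over most of their range. On this gene the Timd4-read moLCs thus lay on the donor side, and no nearer to the eLCs than the Timd4-unread moLCs.

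The 3 Timd4-read moLCs below the highest eLC in Cd207 were well B09 of plate 2 with 2555 CPM, and wells C05 and D01 of plate 1 with 3697 and 6696 CPM. Hbegf, the mouse counterpart of the human gene used as DT receptor, had a read in 69 of 79 eLCs, with 2 to 74 reads in those cells. Of the Timd4-read moLCs only B09 had Hbegf reads, 10 of them. The 4 Timd4-unread moLCs with Hbegf had 122 to 302 reads each. B09 had 462 reads of Edil3, 114 of Cdh17 and 1488 of Rps4l, genes read more often in eLCs, and none of Clec4f or Casp4, genes read more often in moLCs. C05 had none of Hbegf, Edil3, Cdh17, Rps4l and Polg, and had 282 reads of Casp4 and 163 of Clec4f. D01 had no read of any of these 7 genes. Counting Hbegf, Edil3, Cdh17, Rps4l and Polg, B09 had reads of 4. Among the other Timd4-read moLCs 13 had none of the 5, 5 had 1 and 2 had 2. Of the Timd4-unread moLCs 53 had none, 26 had 1 and 3 had 2, whereas 58 of 79 eLCs had 3 or more. B09 is thus labelled moLC but had values like those of eLCs in Cd207, Hbegf, Edil3, Cdh17 and Rps4l, and results that rest on it are given with and without it. It holds 15.3% of the Timd4 reads of the Timd4-read moLCs. Without it the Timd4-read share of moLCs was 19.6%, the summed level 497 CPM, and the Cd207 log2 ratio 0.47.

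**Figure D2:**
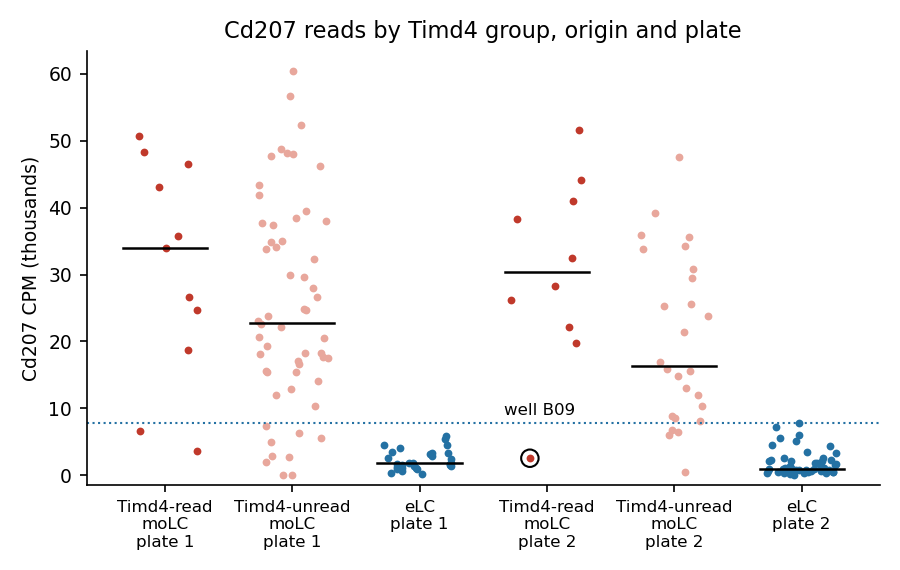
Cd207 level (CPM divided by 1000) for each cell by Timd4 group, origin and plate; lines are medians and the dotted line is the highest eLC, 7767 CPM. Of the Timd4-read moLCs 18 of 21 lie above the dotted line, and well B09 of plate 2 lies among the eLCs.

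Among genes read more often in eLCs, Cdh17 was also read more often in Timd4-read than in Timd4-unread moLCs. Cdh17 encodes a cadherin known from intestinal epithelium. It had a read in 6 of 21 Timd4-read moLCs (28.6%, 11.3% to 52.2%), 4 of 82 Timd4-unread moLCs (4.88%, 1.34% to 12%) and 40 of 79 eLCs (50.6%, 39.1% to 62.1%). The 6 Timd4-read cells had 77, 84, 114, 436, 713 and 736 reads of Cdh17, and the 4 Timd4-unread cells had 242, 338, 488 and 876. The cells with a read therefore overlapped in level, and the groups differed in how many there were. Of the 6 cells, 5 were on plate 2, and on plate 1 a single cell of each group had reads. Summed Cdh17 was 8.15 CPM in Timd4-unread moLCs and 71.9 CPM in eLCs, with the Timd4-read moLCs between them. The log2 ratio of Timd4-read over Timd4-unread moLCs was 2.10, with 1.28 on plate 1 and 2.12 on plate 2. Without B09 the count was 5 of 20 cells, or 25% (8.66% to 49.1%), and the ratio stayed at 2.10. With each cell left out in turn the ratio ran from 1.58 to 2.95. The Timd4-read moLCs with Cdh17 had a median of 801 CPM of Timd4, and those without had 257. For Edil3 these medians were 1038 and 262, for Krt14 629 and 262, for Fam102a 510 and 405, and for Cryzl1 405 and 363. They lay in the reverse order for Laptm4b, 242 and 501, and for Ccr7, 255 and 464. Since the rule divides moLCs by Timd4, no link with Cdh17 is read from these medians. The sets with and without Cdh17 also differ in plate, and Timd4-read moLCs had a median of 629 CPM of Timd4 on plate 2 and 329 on plate 1. The set with Cdh17 includes B09, the highest in Timd4, and the part of plate and of B09 was not tested. Within eLCs Cdh17 did not follow Timd4, with a read in 50% of the Timd4-read and 52.6% of the Timd4-unread cells.

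Edil3, Polg and Rps4l gave no such gap. Edil3 encodes a secreted integrin ligand that binds phosphatidylserine, and it had a read in 79.7% of eLCs. In Timd4-read moLCs it was read in 4 of 21 cells (19%, 5.45% to 41.9%), with 8, 180, 462 and 734 reads. In Timd4-unread moLCs it was read in 15 of 82 (18.3%, 10.6% to 28.4%), with 1 to 1312 reads. The log2 ratio of Edil3 was 0.72 over all cells and -0.39 on plate 1. It was 0.21 without B09. Polg, the catalytic subunit of the mitochondrial DNA polymerase, was read in 1 of 21 Timd4-read moLCs, 7 of 82 Timd4-unread moLCs and 38 of 79 eLCs. For Rps4l, a copy of the ribosomal protein gene Rps4x whose reads may be shared with it, the log2 ratio of 3.12 came from B09 alone. No other Timd4-read moLC had an Rps4l read, against 2 of 82 Timd4-unread moLCs and 42 of 79 eLCs. Pla2g5, a secreted phospholipase, was read in 13 of 21 Timd4-read moLCs, 33 of 82 Timd4-unread moLCs and 61 of 79 eLCs. Its log2 ratio was 1.79 on plate 1 and -0.70 on plate 2. Glrx2 was read in 10 of 21, 26 of 82 and 51 of 79 cells, with log2 ratios of -0.55 on plate 1 and 1.88 on plate 2. Tjp1 went the other way, with a read in 7 of 21, 33 of 82 and 51 of 79 cells. The collagen gene Col16a1 had a read in 4 of 21, 6 of 82 and 26 of 79 cells. Its log2 ratio was 2.21 on plate 1 and 2.46 on plate 2, but on plate 2 a single cell of each moLC group had reads.

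Genes read more often in moLCs were likewise examined. Clec4f, a C-type lectin receptor of Kupffer cells, had a read in 4 of 21 Timd4-read moLCs, 25 of 82 Timd4-unread moLCs and 1 of 79 eLCs. Casp4, an inflammatory caspase, was read in 5 of 21, 36 of 82 and 5 of 79 cells. The Casp4 share was thus 23.8% (8.22% to 47.2%) in Timd4-read and 43.9% (33% to 55.3%) in Timd4-unread moLCs. On plate 1, 4 of 11 and 23 of 56 cells had Casp4 reads, and on plate 2, 1 of 10 and 13 of 26. Jarid2, a cofactor of the Polycomb complex, had a read in 1 of 21 Timd4-read moLCs, which was B09, in 31 of 82 Timd4-unread moLCs and in 9 of 79 eLCs. Ifitm3, an interferon-induced membrane protein, went the other way, with a read in 19 of 21 Timd4-read moLCs, 67 of 82 Timd4-unread moLCs and 39 of 79 eLCs. The Timd4-unread moLCs are one side of both contrasts, so the 3 values of each gene stand side by side and no agreement is read from them.

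**Figure D3:**
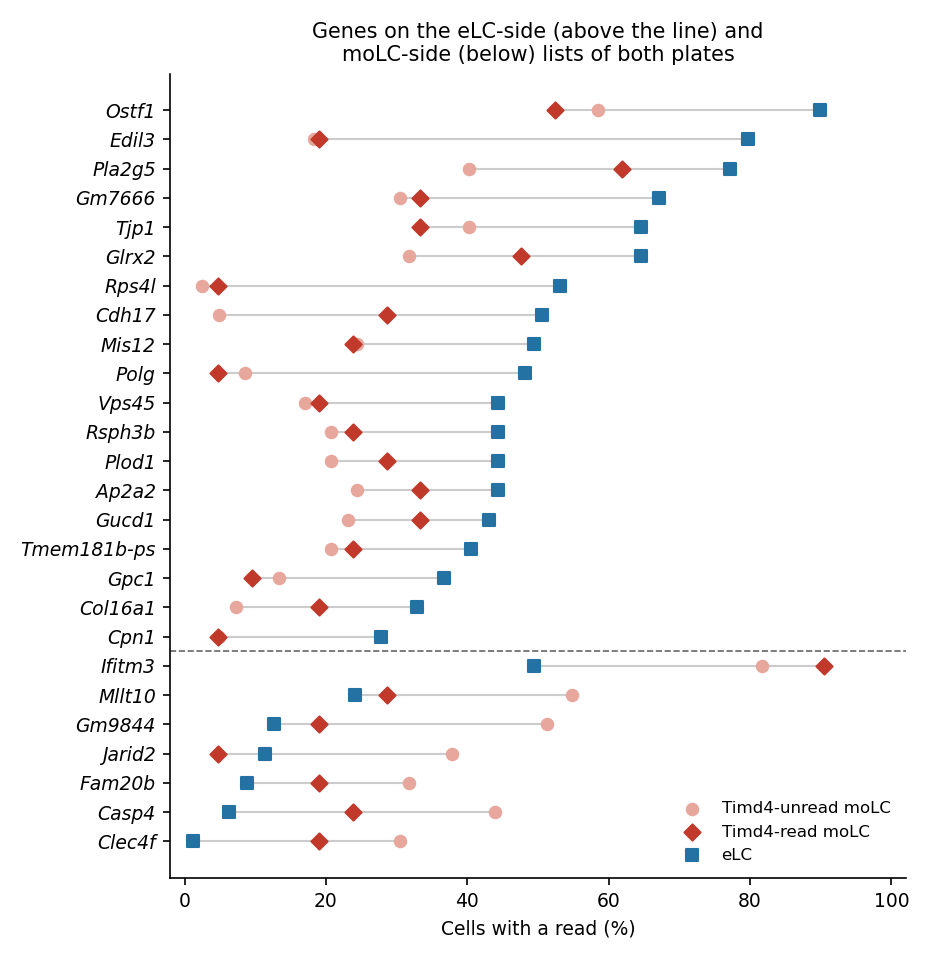
Percent of cells with a read for the 19 genes on the eLC-side lists of both plates and the 7 on the moLC-side lists of both, in Timd4-unread moLCs, Timd4-read moLCs and eLCs. For Edil3 and Rps4l the Timd4-read moLCs lie beside the Timd4-unread moLCs, and for Cdh17 they lie between these and the eLCs. They also lie between for Ap2a2, Col16a1, Glrx2, Gucd1, Pla2g5 and Plod1, and by less for Gm7666, Rsph3b, Tmem181b-ps and Vps45. For Gpc1, Ostf1, Polg and Tjp1 they lie below both other groups, and for Cpn1 and Mis12 just below. On the moLC side they lie between for Casp4, Clec4f, Fam20b, Gm9844 and Mllt10, below both for Jarid2 and above both for Ifitm3.

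To compare the groups over many genes with no cell on both sides, lists were chosen on 1 plate and read out on the other. An eLC-side gene was detected in 25% or more of the cells of a group, and had at least 2-fold higher summed CPM in eLCs than in Timd4-unread moLCs and a share of cells at least 20 percentage points higher. Plate 1 gave 247 such genes, of which 242 had a ratio on plate 2. Their median log2 ratio there, Timd4-read over Timd4-unread moLCs, was -0.44, against -0.25 over all 6637 genes that could have been listed. In the eLCs of plate 2 the same genes had a median of 0.21 over Timd4-unread moLCs. Of the 242 genes 15.3% were at least 2-fold higher in Timd4-read moLCs (7.58% of all) and 36.4% were at least 2-fold lower (26.1% of all). Plate 2 gave 144 eLC-side genes, and on plate 1 their median was -0.086, against -0.088 over all genes, while eLCs had 0.40. Here 16.7% were 2-fold higher (7.18% of all) and 29.2% were 2-fold lower (18.1% of all). Listed genes thus spread more widely than the others in both directions, and their median in Timd4-read moLCs was below that of all genes on plate 2 and close to it on plate 1. With lists and ratios both taken after thinning, the median was -0.34 on plate 2, against -0.30 of all genes, and -0.04 on plate 1, against -0.14 of all genes, so that on plate 1 the listed genes then lay above all genes. The eLCs had 0.15 and 0.35 on these thinned lists. Without B09 the plate 2 median was -0.51. The moLC-side lists, chosen in the mirrored way, had medians of -0.34 on plate 2 (66 genes) and -0.51 on plate 1 (112 genes) in Timd4-read moLCs, beside -0.31 and -0.30 in eLCs.

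Counted per cell at equal depth, the eLC-side genes of the other plate were no more numerous in Timd4-read than in Timd4-unread moLCs. On plate 2, 9 Timd4-read moLCs had a read of 65.2 ± 14.4 of the 247 genes (mean ± SD over cells), 24 Timd4-unread moLCs had 78.6 ± 23.2, and 41 eLCs had 93.1 ± 21. On plate 1, 10 Timd4-read moLCs had 39.2 ± 14.8 of the 144 genes, 53 Timd4-unread moLCs 41.9 ± 10.9, and 26 eLCs 56.9 ± 9.36. The groups of moLCs differed by less than 1 SD on both plates, and their ranges overlapped. The highest Timd4-read moLC on plate 2 had 98 genes and the lowest 49, and B09 had 68. The moLC-side genes of the other plate were fewer in Timd4-read moLCs as well. On plate 2 the means were 23.1 of 66 genes in Timd4-read moLCs, 25.8 in Timd4-unread moLCs and 22.3 in eLCs, and B09 had 29. On plate 1 they were 28.3, 34.8 and 33.2 of 112 genes. Timd4-read moLCs also had fewer genes read in all, and the part of that number in the lower means of both lists on both plates was not tested.

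**Figure D4:**
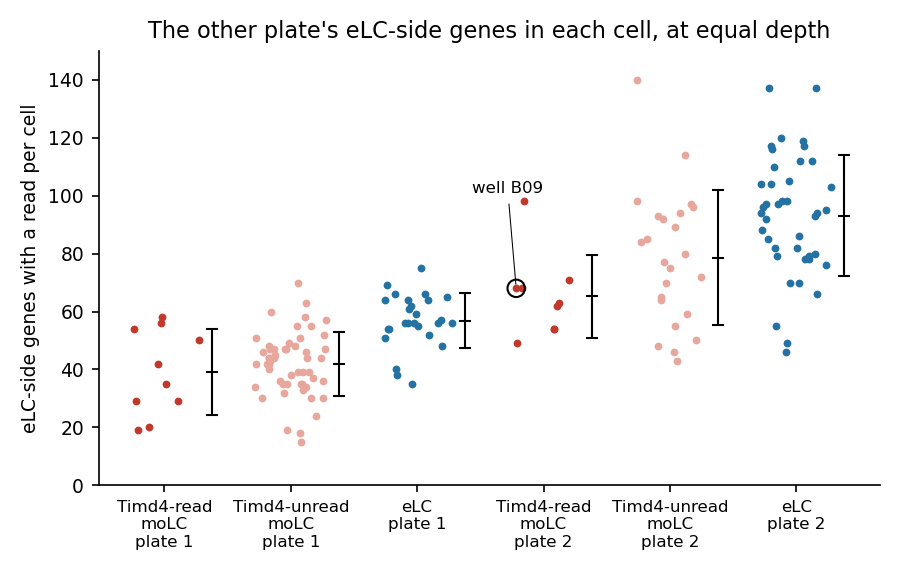
Number of the other plate's eLC-side genes with a read in each cell after thinning to equal depth, by Timd4 group, origin and plate; black marks are means ± SD over cells. The mean of the Timd4-read moLCs is 39.2 on plate 1 and 65.2 on plate 2, below the eLC means of 56.9 and 93.1.

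A measure over whole profiles, added after the data were seen, gave different orders on the plates. For each cell the Pearson correlation of log2(CPM + 1) with the mean eLC profile of the other plate, minus that with the mean Timd4-unread moLC profile, had a median of 0.0081 in Timd4-read moLCs of plate 1, 0.0047 in Timd4-unread moLCs and 0.0119 in eLCs. On plate 2 the medians were -0.0160, -0.0097 and -0.0034. B09 had -0.0166, near the median of the Timd4-read moLCs and inside the range of the eLCs, whose lowest cell had -0.0217. Timd4-read moLCs lay between the other groups on plate 1 and beyond the Timd4-unread moLCs on plate 2, and all groups overlapped on both.

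Across all genes, differences between Timd4-read and Timd4-unread moLCs were sought with a size rule, which requires detection in 25% or more of the cells in 1 group and at least a 2-fold ratio of summed CPM in the same direction over all cells and within each plate. The rule has no error rate. Of 6227 genes other than Timd4, 418 (6.71%) passed. Of these, 73 (1.17%) passed as higher and 345 (5.54%) as lower in Timd4-read moLCs. With 21 cells against 82, and fewer genes read per cell in the smaller group, the 2 directions are not on an equal footing. Of these genes 36 (0.578%) and 280 (4.50%) also passed after thinning and without B09. The 683 genes read in at least 90% of both groups had a median log2 ratio of 0.02, with none 2-fold higher and 1 2-fold lower. Ratios of the 6227 genes on the 2 plates, which share no cell, were weakly related, with a Pearson r of 0.126 across genes, which are not independent. Of the 447 genes 2-fold higher on plate 1 (7.18% of all), 16.3% were so on plate 2, where 7.50% of all genes were. Of the 977 genes 2-fold lower on plate 1 (15.7% of all), 35.6% were so on plate 2, against 23.8% of all. Over all cells 4.01% of genes were 2-fold higher and 11.4% 2-fold lower.

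**Figure D5:**
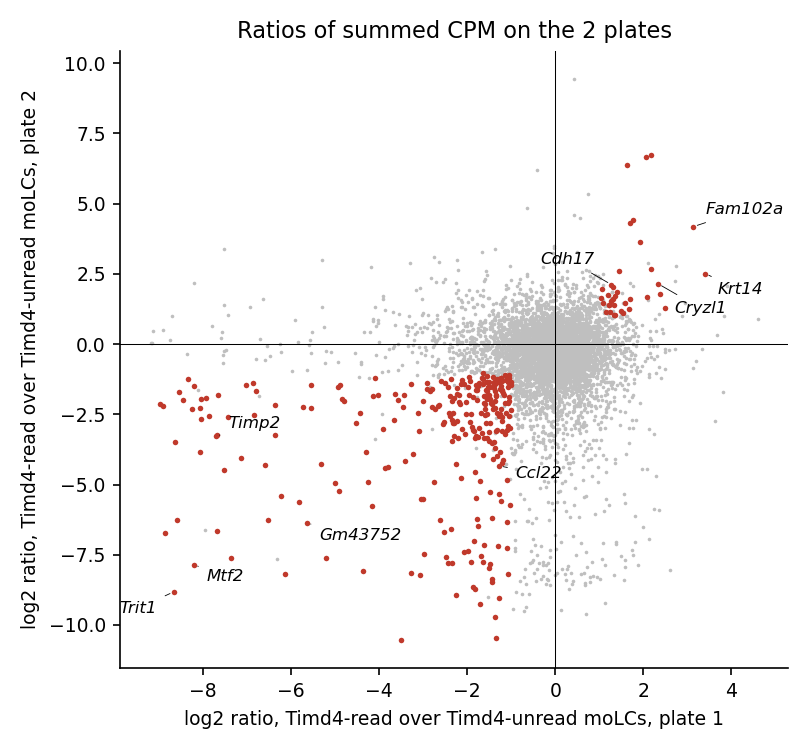
Log2 ratio of summed CPM, Timd4-read over Timd4-unread moLCs, on plate 1 (horizontal) and plate 2 (vertical) for the genes tested; a gene with no read in 1 group is drawn at its bound from a floor of 3 reads. Red points are the 36 higher and 280 lower genes that also passed after thinning and without B09, and the genes spread more widely downward on plate 2, where 23.8% of them were 2-fold lower.

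Of the 10 genes highest in Timd4-read moLCs under this rule, all but Cryzl1 were read in 8 or fewer of the 21 cells. Fam102a had the largest ratio, with a read in 8 of 21 Timd4-read and 9 of 82 Timd4-unread moLCs, 20.1 against 2.07 CPM, and a log2 ratio of 3.28 (3.14 and 4.18 on the plates). Krt14, which encodes a keratin of basal keratinocytes, followed with a log2 ratio of 3.05. It had a read in 6 of 21 Timd4-read moLCs, with 24, 342, 366, 426, 468 and 1334 reads, in 5 of 82 Timd4-unread moLCs and in 3 of 79 eLCs. Laptm4b, a lysosomal membrane protein, had reads in 6 of 21 and 5 of 82 moLCs and in 1 of 79 eLCs. Its log2 ratio was 2.42. Specc1l, 5830418P13Rik, Gm13136, Zmym1 and the TGF-beta antagonist Ski followed, with log2 ratios from 2.02 to 2.25. A gene of this kind reached the detection minimum through the Timd4-read moLCs, in which 6 cells are enough, so its difference is in part fixed by that minimum.

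Cryzl1, a quinone oxidoreductase-like gene, was read in the largest share of Timd4-read moLCs among these. It had a read in 11 of 21 Timd4-read moLCs (52.4%, 29.8% to 74.3%), 14 of 82 Timd4-unread moLCs (17.1%, 9.66% to 27%) and 30 of 79 eLCs (38%, 27.3% to 49.6%). Cryzl1 reads in those 11 cells ran from 22 to 702 with a median of 218, and in the 14 Timd4-unread cells from 5 to 532 with a median of 167. The log2 ratio was 2.25, with 2.33 on plate 1 (6 of 11 against 10 of 56 cells) and 2.15 on plate 2 (5 of 10 against 4 of 26 cells). Under a rule on shares added after the data were seen, with a gap of at least 30 percentage points over all cells and within each plate, as sequenced and thinned, it was the 1 gene higher in Timd4-read moLCs (0.0161% of those tested). Cryzl1 too reached the detection minimum only through the Timd4-read moLCs, so its difference is in part fixed by that minimum. In eLCs its share was 38.3% of Timd4-read and 36.8% of Timd4-unread cells.

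The same share rule gave 6 genes lower in Timd4-read moLCs (0.0964%). Without B09, 8 genes passed the share rule in all, of which 6 were among the 7 that passed with it. Hnrnpr no longer passed. Gps1, a subunit of the COP9 signalosome, was read in 7 of 21 Timd4-read moLCs (33.3%, 14.6% to 57%), 60 of 82 Timd4-unread moLCs (73.2%, 62.2% to 82.4%) and 72.2% of eLCs. Sestd1 was read in 3 of 21 (14.3%, 3.05% to 36.3%), 47 of 82 (57.3%, 45.9% to 68.2%) and 34.2% of eLCs. The DNA polymerase delta subunit Pold3 had reads in 3 of 21 and 39 of 82 moLCs, Suco in 5 and 47, the RNA-binding protein Hnrnpr in 6 and 49, and Jarid2 in 1 and 31. Sestd1, Pold3, Suco and Jarid2 reached the detection minimum only through the Timd4-unread moLCs, so their difference is in part fixed by that minimum. The eLC shares of Gps1, Suco and Hnrnpr were 72.2%, 53.2% and 54.4%, close to those of the Timd4-unread moLCs. By the size rule the largest differences downward were those of Trit1, a tRNA-modifying enzyme, and Mtf2, a Polycomb-associated protein. Trit1 was read in 1 of 21 Timd4-read and 22 of 82 Timd4-unread moLCs, and Mtf2 in 1 and 30, with log2 ratios of -10.07 and -9.06. Oxsr1, Dgcr2 and Cic had no read in any Timd4-read moLC, and had reads in 21, 21 and 24 Timd4-unread moLCs. Like Trit1 and Mtf2, they reached the detection minimum only through the Timd4-unread moLCs. Their difference is thus in part fixed by that minimum. With 3 reads over the group as the floor, Oxsr1 was at least 8.43 lower on the log2 scale. Tubgcp3, Eya3, Foxred1, Serpinb9b and 9930021J03Rik completed the 10 largest, with reads in 1 to 7 Timd4-read moLCs.

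Of the 186 genes in 18 lists of LC biology and cell type markers, 71 reached the detection minimum. Among these 71, 2 passed the size rule as higher (2.82%, against 1.17% of all genes), Cdh17 and Krt14, and 7 as lower (9.86%, against 5.54%). Cdh17 and Krt14 reached the minimum only through the Timd4-read moLCs, and Ccr7, Timp2 and Gm43752 only through the Timd4-unread moLCs. These shares are therefore in part fixed by the minimum, and no enrichment is read from them.

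LC identity genes were at like levels in both groups. All 21 Timd4-read moLCs had reads of Cd207, Cd74, Csf1r (the receptor for M-CSF and IL-34) and Spi1 (the transcription factor PU.1), and 20 had reads of Epcam. Log2 ratios were 0.07 for Cd74, 0.05 for Csf1r, 0.20 for Spi1 and 0.03 for Epcam. Of the 14 genes of the list past the minimum none passed the size rule, and their median log2 ratio was 0.04, beside -0.09 over all genes. The largest ratio was that of the TGF-beta receptor gene Tgfbr1, 1.02, with 1.13 on plate 1 and 0.93 on plate 2. Without B09 it was 0.66, and -0.49 on plate 2.

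TIM-4 binds phosphatidylserine. Of 22 genes for other receptors, bridging proteins and engulfment, only 4 reached the detection minimum, and none of these passed the size rule. Since 6.71% of all genes passed, none of 4 says little about the family. Mertk, Tyro3, Gas6, Stab1 and Timd2 had no read in any moLC, and Axl had none in the Timd4-read moLCs. Havcr1, which encodes TIM-1, a receptor of the same family, had reads in 2 of 21 Timd4-read moLCs, 1 of 82 Timd4-unread moLCs and 11 of 79 eLCs, and both Timd4-read moLCs were on plate 1. Mfge8, a bridging protein, was read in every cell, at 12361 CPM in Timd4-read moLCs, 11428 in Timd4-unread moLCs and 10092 in eLCs. Its log2 ratio was 0.42 on plate 1 and -0.38 on plate 2. Cd300a, an inhibitory receptor for phosphatidylserine, was read in 11 of 21, 45 of 82 and 27 of 79 cells. Of the integrin subunits that bind MFG-E8, Itgav was read in 5 of 21 and 13 of 82 moLCs, and Itgb3 and Itgb5 had no read in Timd4-read moLCs.

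Other genes of resident macrophages were not read more often in Timd4-read moLCs. Lyve1, Folr2, Cd163, Vsig4, Marco, Cd5l, Spic, Slc40a1 and Cd209f had no read in any moLC or eLC, so these genes could not be compared. C1qa, a subunit of complement C1q, was read in 9 of 21 Timd4-read moLCs (42.9%, 21.8% to 66%), 52 of 82 Timd4-unread moLCs (63.4%, 52% to 73.8%) and 61 of 79 eLCs (77.2%). On plate 1, 7 of 11 and 34 of 56 moLCs had C1qa reads, and on plate 2, 2 of 10 and 18 of 26. The log2 ratio of C1qa was -0.71 on plate 1 and -2.64 on plate 2. None of the 6 genes of this list past the minimum passed the size rule, and all 6 had a log2 ratio below 0 over all cells, where 43.4% of all genes had one above 0. Within eLCs C1qa was read in 83.3% of Timd4-read and 57.9% of Timd4-unread cells.

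Among genes of maturation and migration, Ccr7 and Ccl22 passed the size rule as lower. Ccr7, the receptor that guides LCs to skin-draining lymph nodes, was read in 4 of 21 Timd4-read moLCs (19%, 5.45% to 41.9%) and 36 of 82 Timd4-unread moLCs (43.9%, 33% to 55.3%). The 4 cells had 682, 1948, 7446 and 11284 reads, and the 36 had 4 to 40538. The log2 ratio of Ccr7 was -1.52, with -1.17 and -2.20 on the plates, and after thinning it no longer passed. Within eLCs the shares lay in the reverse order, with Ccr7 reads in 30 of 60 Timd4-read (50%, 36.8% to 63.2%) and 1 of 19 Timd4-unread eLCs (5.26%, 0.133% to 26%). Whether the 2 origins differ in this respect was not tested. Ccl22, a chemokine of mature dendritic cells, was read in 9 of 21 and 28 of 82 moLCs, at 207 and 691 CPM. Its share of cells was thus higher in Timd4-read moLCs. The highest Timd4-unread cell had 88680 reads of Ccl22, most of those of its group, so the ratio rests largely on that cell. The other 13 genes of the list past the minimum did not pass. Log2 ratios were 0.20 for H2-Aa, 0.34 for Cd86 and 0.18 for Cd40.

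The remaining lists hold few genes, and 5.54% of all genes passed as lower. Past the detection minimum were 12 immediate early and heat shock genes, 2 cell cycle genes, 5 lipid genes and 4 monocyte genes. So were 4 of the genes earlier seen to be unequal between origins. Of the immediate early and heat shock genes, which also respond to tissue digestion, Egr1 (log2 ratio -2.06) and the chaperone gene Dnajb1 (-2.33) passed as lower, Dnajb1 only with B09 included. Hspa1a had -2.21 on plate 1 and 1.94 on plate 2. In the cell cycle list Mki67, a marker of dividing cells, was read in 12 of 21 Timd4-read and 51 of 82 Timd4-unread moLCs, with a log2 ratio of -0.62. In the lipid list the cholesterol exporter gene Abcg1 passed as lower, with a ratio of -2.18. Of the monocyte genes Ly6c2 and Cx3cr1 had no read in any moLC, and Lyz2 was read in 5 of 21 and 38 of 82 moLCs, with a ratio of -1.24. Timp2, an inhibitor of metalloproteinases (2 of 21 against 24 of 82), and Gm43752 (3 of 21 against 24 of 82) passed as lower, and both had earlier been seen to be unequal between origins in these data.

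Some markers of keratinocytes and dermal DC1s were read in the Timd4-read moLCs, and Krt14 was the 1 marker of another cell type past the size rule. Over the 10 keratinocyte markers the summed level ranged from 0 to 686 CPM in Timd4-read moLCs (11 of 21 with a read), 0 to 554 in Timd4-unread moLCs (38 of 82) and 0 to 836 in eLCs (45 of 79). Krt15, Krt1 and Dsp had no read in any cell, and Krt5, the partner of Krt14, had reads in 1 of 21 and 2 of 82 moLCs. The part of keratinocyte RNA in the Krt14 result was not tested. T cell and melanocyte markers were each read in 1 of 21 Timd4-read moLCs, and mast cell and B cell markers in none. A marker of dermal DC1s was read in 8 of 21 Timd4-read and 39 of 82 Timd4-unread moLCs, but Xcr1, Clec9a and Batf3 had no read in Timd4-read moLCs. Cadm1, a marker of that set and an adhesion molecule, was read in 7 of 21 and 24 of 82 moLCs, with a log2 ratio of 0.92 that became -0.08 without B09. Dmkn, a protein secreted by keratinocytes, was read in 5 of 21 and 25 of 82 moLCs, with a ratio of 0.38 that became -0.05 without B09.

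The comparison was repeated inside the eLCs, which share no cell with the moLCs, between 60 Timd4-read and 19 Timd4-unread cells. Of the 36 genes higher in Timd4-read moLCs, 17 (47.2%) had a log2 ratio above 0 in eLCs, and of the 280 lower genes 136 (48.6%) had one, beside 48.6% of all 6227 genes. Cdh17 had a ratio of -0.84 there, Krt14 -1.33, Cryzl1 -0.39 and Fam102a 0.40. Genes that went with Timd4 among moLCs were thus about as often on either side of 0 among eLCs.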

How the data were processed

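Single epidermal LCs were index-sorted, and the authors amplified cDNA with a Takara Smart-Seq kit, made Nextera XT libraries, used STAR and mm10 for paired reads (submitters' processing notes), and deposited raw counts for each gene in each cell (45661 genes, 185 cells). The counting tool and annotation are not given in the sources used here. No molecular identifiers were used, so PCR copies are counted. As deposited by the authors, 8 cells hold 9 values that are not whole. These estimated counts, as deposited by the authors, were made in a way not given in the sources used here, and were rounded to whole numbers. Totals ranged from 432614 to 4525429 reads in the cells kept.

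The study's limit of 5% mitochondrial reads removed 3 cells, none with a Timd4 read. Counts were summed over cells and divided by summed totals (CPM). A group with 0 reads was set to 3 reads. The paper's Wilcoxon test over cells takes cells as replicates and was not used. Genes named are those of the lists, the 10 largest ratios in each direction past the size rule, its thinned form and that without B09, and genes on the eLC-side lists of both plates. The moLC-side genes and those of the share rule were named after their values were seen. Members and lists were chosen with earlier results of these data known. Alternatives were thinning, each plate, B09 or each cell left out, no mitochondrial filter, equal cell weights, edgeR TMM factors, totals without 50 genes, and other thresholds. Scripts were tested on simulated counts. Python 3.11.15, numpy 2.4.6, pandas 2.3.3, scipy 1.17.1, matplotlib 3.10.9, R 4.3.3 and edgeR 4.0.16 were used. Gene coordinates are from GENCODE M21. Results for some genes are not reported here.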

Additional observations from a re-analysis of the deposited data

Results flagged for a closer look

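Total reads, genes read, Timd4 level, Cd207 level and the difference in correlation with the profiles of the other plate were screened for single outlying cells among the 10 Timd4-read moLCs of plate 2. Of these 5 measures 1 stood out. Well G12 had 1370741 reads in all, the lowest of the 10 cells and far below the next. Chance alone marks about 1 in 20 groups for each measure, and 5 measures were screened, so that a mark by chance is likelier than that. G12 is among the 6 Timd4-read moLCs with Cdh17, with 77 reads of that gene, and among the 6 with Krt14, with 24 reads, and it was too shallow for the thinned values.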

How the results depend on the processing

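No paired analysis was possible because the labels give no replicate numbers shared between groups, name no animals, and no test was made. Genes past the size rule were 6.71% of those tested. The share was 1.90% with detection in 50% of the cells of a group, 13.7% with no detection minimum and 1.69% with a 4-fold ratio. The number, 418, lay between 399 and 530 with thinning, without B09, without the mitochondrial filter, with TMM factors, with equal cell weights and with totals without 50 genes. TMM factors raised log2 ratios by 0.08 over all cells and by 0.14 on plate 2. The plate 2 median of the eLC-side genes, -0.44, was -0.31 with TMM factors and -0.30 with totals without 50 genes, and with single cells left out it ran from -0.51 to -0.37. On plate 1 the median, -0.09, ran from -0.237 to -0.048. With a gap of 30 percentage points the lists are shorter, and Timd4-read moLCs had reads of 8.70 genes on plate 1 and 24.7 on plate 2, against 9.06 and 27.8 in Timd4-unread moLCs. Of 45 named genes 13 changed the sign of their log2 ratio under some alternative or on 1 plate, among them Edil3, Rps4l, Polg, Casp4, C1qb and Tgfbr1. With B09 and the cell with the most reads of the gene in each group left out, chosen after seeing the data, the log2 ratio was 2.38 for Cdh17, 3.12 for Krt14, 2.37 for Cryzl1 and -1.30 for Edil3. With 21 cells the shares have wide counting intervals.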
